A study of Mus musculus with 6 samples.

Results

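The genes described here encode RNA-binding proteins that set the splicing and stability of transcripts in neurons. A list of 10 genes was followed by name: the CELF genes Celf3, Celf4 and Celf5, the neuronal ELAV-like (Hu) genes Elavl2, Elavl3 and Elavl4, Nova1, the polypyrimidine tract binding protein genes Ptbp1 and Ptbp2, and Srrm4. All probes of these names, older ones included (Tnrc4 for Celf3, Brunol4 for Celf4), were taken from an Illumina MouseRef-8 v2 bead chip. The chip held 14 probes for 8 of the 10 genes, among 25697 probes for 17759 gene names in all. No probe carried the names Celf5 or Nova1, so those 2 genes were not measured here.

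The cells were E14Tg2a, a line of mouse embryonic stem (ES) cells, and total RNA of 3 samples labelled REST KO and 3 labelled control was hybridised, with 1 array each. The source names are FloResCre for the REST KO samples and FloRes for the control samples. REST is a DNA-binding protein that silences neuronal genes outside neurons, and the study used Rest-null ES cells to ask how REST links pluripotency to neural differentiation. The labels do not give the deleted exons, the number of clones or whether the replicates were separate cultures. P-values thus rest on sample-to-sample spread alone, part or all of which may be technical. All 6 arrays lay on 1 chip, REST KO samples in positions D to F and control samples in A to C, so chip position and genotype cannot be told apart. In such bulk RNA, fewer expressing cells and less RNA per cell cannot be told apart either.

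As background, cells that are not neurons keep neuronal exons out of their transcripts largely through PTBP1, which also acts on transcripts of its neuronal paralog PTBP2. Neurons replace PTBP1 with PTBP2 and add factors such as SRRM4, NOVA1, CELF and Hu proteins. Srrm4 is a known REST target, and SRRM4 in turn promotes a neural splice form of Rest transcripts.

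The labelled cell type was checked against marker genes. All 9 ES cell markers on the list, among them Pou5f1, Nanog and Sox2, were detected on every array by at least 1 probe, where detected means a detection p under 0.05 against the chip's background. Of 9 neuron markers with a probe 4 were detected on all REST KO arrays and 2 on all control arrays, and Dcx, Nefl, Snap25, Syt1 and Tubb3 were detected on none. By their brightest probes, Pou5f1 averaged 12.78 in REST KO cells and 12.86 in control cells on the log2 scale, Nanog averaged 11.46 in REST KO cells and 12.07 in control cells, and Sox2 averaged 9.28 in REST KO cells and 10.09 in control cells. None of the 3 genes passed limma's test of genotype (adjusted p = 0.75, 0.442 and 0.0714). Dimmer probes of Pou5f1 and Sox2, also detected on every array, gave other log2 differences, REST KO minus control. That of Pou5f1 went the same way and further (-0.42, against -0.079 by the brightest probe). That of Sox2 did not go down (0.068, against -0.81 by the brightest probe). Neither dimmer probe passed (limma adjusted p = 0.104 and 0.861). The Rest probe was detected on no array (4.96 ± 0.11 in REST KO cells and 5.01 ± 0.09 in control cells, log2), so it could not check the genotype labels. The arrays detected 42.5% to 44.9% of their probes, and member probes were read from 23 to 61 beads. Control replicate 2 stood apart from the other controls across tested probes, which are not independent. Its levels correlated at 0.980 to 0.982 with the REST KO arrays and at 0.975 with control replicates 1 and 3, which correlated at 0.992 with each other. Control replicates 1 and 3 correlated at 0.963 to 0.987 with the REST KO arrays, highest for control replicate 3 with REST KO replicate 3.

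Of the 8 genes with a probe, 4 gave a signal that could be tested: Ptbp1, Elavl2, Celf4 and Elavl3. The other 4, Celf3, Elavl4, Ptbp2 and Srrm4, were detected on none of the 6 arrays by any probe. Probes detected on at least 3 arrays were tested, which kept 6 of the 14 member probes and 11388 of all probes. No member probe passed limma's test at an adjusted p of 0.05, against 1.27% of all tested probes (1.05% higher and 0.22% lower in REST KO cells). At an unadjusted p under 0.05 there was 1 of 6 member probes, against 19.9% of all. The arrays of the 2 genotypes did not overlap for 1 of the 6, against 25.1% of all tested probes. These shares do not set the members apart from other genes.

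**Figure D1:**
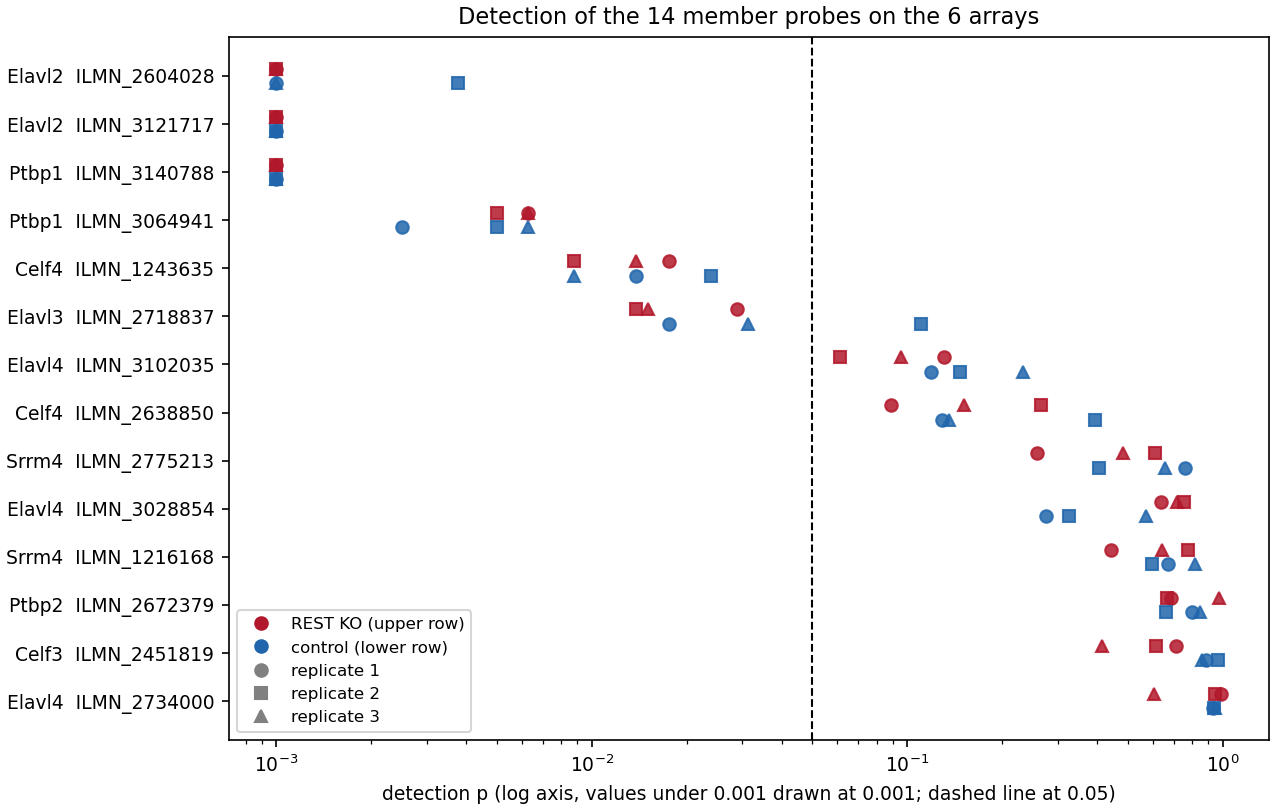
Detection p of each of the 14 member probes (one line each) on the 3 REST KO arrays (red, upper row of each line) and the 3 control arrays (blue, lower row), on a log axis with a dashed line at 0.05. The probes of Elavl2 and Ptbp1, 1 probe of Celf4 and the Elavl3 probe lie left of the line on all arrays, except for Elavl3 in control replicate 2, and the other 8 probes lie right of it on every array.

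Ptbp1, on chromosome 10, is the repressor of neuronal exons that non-neuronal cells express. Its brighter probe (ILMN_3140788) gave raw intensities of 6101.8, 7356.7 and 6651.8 in REST KO replicates 1 to 3 and of 7406.3, 6737.5 and 6765.3 in control replicates 1 to 3. On the normalized log2 scale it stood at 12.69 ± 0.14 in REST KO cells and 12.74 ± 0.031 in control cells (SD, n = 3 each). The arrays of the 2 genotypes overlap, and REST KO replicate 1 was the lowest. The log2 difference was -0.041 ± 0.11 (SE, limma adjusted p = 0.873), with a 95% interval of -0.29 to 0.21, or 0.816-fold to 1.16-fold. A dimmer Ptbp1 probe (ILMN_3064941) stood at 7.36 ± 0.033 in REST KO cells and 7.43 ± 0.12 in control cells. Its arrays overlap as well. Its log2 difference was -0.077 ± 0.10 (limma adjusted p = 0.716), with an interval of 0.802-fold to 1.12-fold.

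Ptbp2, on chromosome 3, encodes the neuronal paralog. Its single probe read 90.2, 93.4 and 78.5 (raw intensity) in REST KO cells and 95.4, 91.4 and 87.9 in control cells. Its detection p ran from 0.664 to 0.975 in REST KO cells and from 0.66 to 0.846 in control cells. None of the 6 values stood above background. No fold was computed, and a change of Ptbp2 was not detectable with this probe.

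The promoter windows of this pair are shown because REST acts at DNA and the genes are each other's counterparts in the neuronal switch. The sequences are RefSeq windows of assembly GRCm38.p6, from 250 bases before a transcript start to 50 bases after it, 5′ to 3′ on the gene's strand. Capitals mark the letters GGACAG, which belong to the right-hand part of the RE1 element that REST binds, on either strand. Ptbp1 (plus strand) is at chr10:79854182-79854481 and Ptbp2 (minus strand) at chr3:119783339-119783638. The Ptbp1 window holds no such letters, and the Ptbp2 window holds them once, on the opposite strand of the window.
Ptbp1: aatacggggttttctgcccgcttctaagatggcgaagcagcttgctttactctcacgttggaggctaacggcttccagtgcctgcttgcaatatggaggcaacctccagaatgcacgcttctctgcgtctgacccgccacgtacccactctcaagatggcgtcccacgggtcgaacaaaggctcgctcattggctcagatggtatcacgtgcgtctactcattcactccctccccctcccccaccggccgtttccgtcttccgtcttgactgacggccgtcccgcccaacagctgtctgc
Ptbp2: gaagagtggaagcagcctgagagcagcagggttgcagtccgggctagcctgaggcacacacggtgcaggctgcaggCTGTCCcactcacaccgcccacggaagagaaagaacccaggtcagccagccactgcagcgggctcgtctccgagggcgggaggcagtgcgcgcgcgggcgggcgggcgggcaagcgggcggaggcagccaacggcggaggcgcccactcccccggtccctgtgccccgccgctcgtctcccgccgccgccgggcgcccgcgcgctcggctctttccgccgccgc

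Srrm4, on chromosome 5, encodes the splicing factor nSR100, which brings short exons into neuronal transcripts. Both of its probes were undetected on all arrays. The first (ILMN_1216168) read 97.6, 89.9 and 93.7 in REST KO cells and 100.3, 93.1 and 89.1 in control cells. The second (ILMN_2775213) read 105.6, 95.3 and 98.3 in REST KO cells and 99.1 at most in control cells, with detection p no lower than 0.258 on any array. No signal of Srrm4 above background was seen in either genotype.

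The Hu proteins bind AU-rich stretches of transcripts, stabilise them and also act on splicing and translation. Of the neuronal members, Elavl2 (HuB), on chromosome 4, had the clearest signal. Its brighter probe (ILMN_3121717) stood at 10.58, 10.63 and 10.68 (log2) in REST KO replicates 1 to 3 and at 10.35, 9.88 and 10.63 in control replicates 1 to 3. Control replicate 3 lay among the REST KO arrays and control replicate 2 was the lowest. The log2 difference was 0.34 ± 0.18 (SE), or 1.27-fold, with an interval of -0.091 to 0.77 (limma adjusted p = 0.349). The dimmer probe (ILMN_2604028) stood at 8.68, 8.42 and 8.77 in REST KO cells and at 8.20, 7.67 and 8.12 in control cells. Here every REST KO array was above every control array. The difference was 0.62 ± 0.17, or 1.54-fold, with an interval of 0.23 to 1.02 and an unadjusted p of 0.00708 (limma adjusted p = 0.109), so it did not pass. In the authors' deposited table the same probe had a log2 fold change of 0.48 with an adjusted p of 0.0706, and none of the 14 member probes passed 0.05 there, against 1.74% of the probes in that table.

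Array weights, which count disagreeing arrays less, brought the dimmer Elavl2 probe just past the threshold (log2 0.51, limma adjusted p = 0.0489, from 0.0489 to 0.328 over 15 alternatives). That fit called 1386 of 11388 probes, against 145 as reported, so 1 call among 6 member probes does not set Elavl2 apart. The brighter probe's difference was 0.14 without control replicate 2 and 0.18 with array weights. Of the marker lists, the mean log2 level of the 9 neuron markers with a probe was 6.41 to 6.56 on the REST KO arrays and 5.93 to 6.35 on the control arrays, lowest in control replicate 2. The mean of the 9 ES cell markers was 11.07 to 11.65 on the REST KO arrays. It was 11.39 in control replicate 2 and 12.09 and 12.18 in control replicates 1 and 3. By their brightest tested probes, 0 of the 9 had a difference above 0. None of the tested neuron or ES cell markers passed the test. The neuron markers Gap43 and Nefm were each detected on all REST KO arrays and on 1 of 3 control arrays. Their differences of 1.37 and 1.19 (limma adjusted p = 0.0844 and 0.0782) average in control values at background. The other tested neuron markers, Stmn2 and Map2, were detected on every array. Their differences were 0.025 and 0.51 (limma adjusted p = 0.968 and 0.345), and their groups overlap. Of 7 neural progenitor markers with a probe 1 was tested, Nes, whose brighter probe was detected on all REST KO arrays and on no control array. Its difference of 1.01 (limma adjusted p = 0.0504) averages in control values at background, and its dimmer probe was detected on no array. The part of any marker list in the Elavl2 values was not tested.

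**Figure D2:**
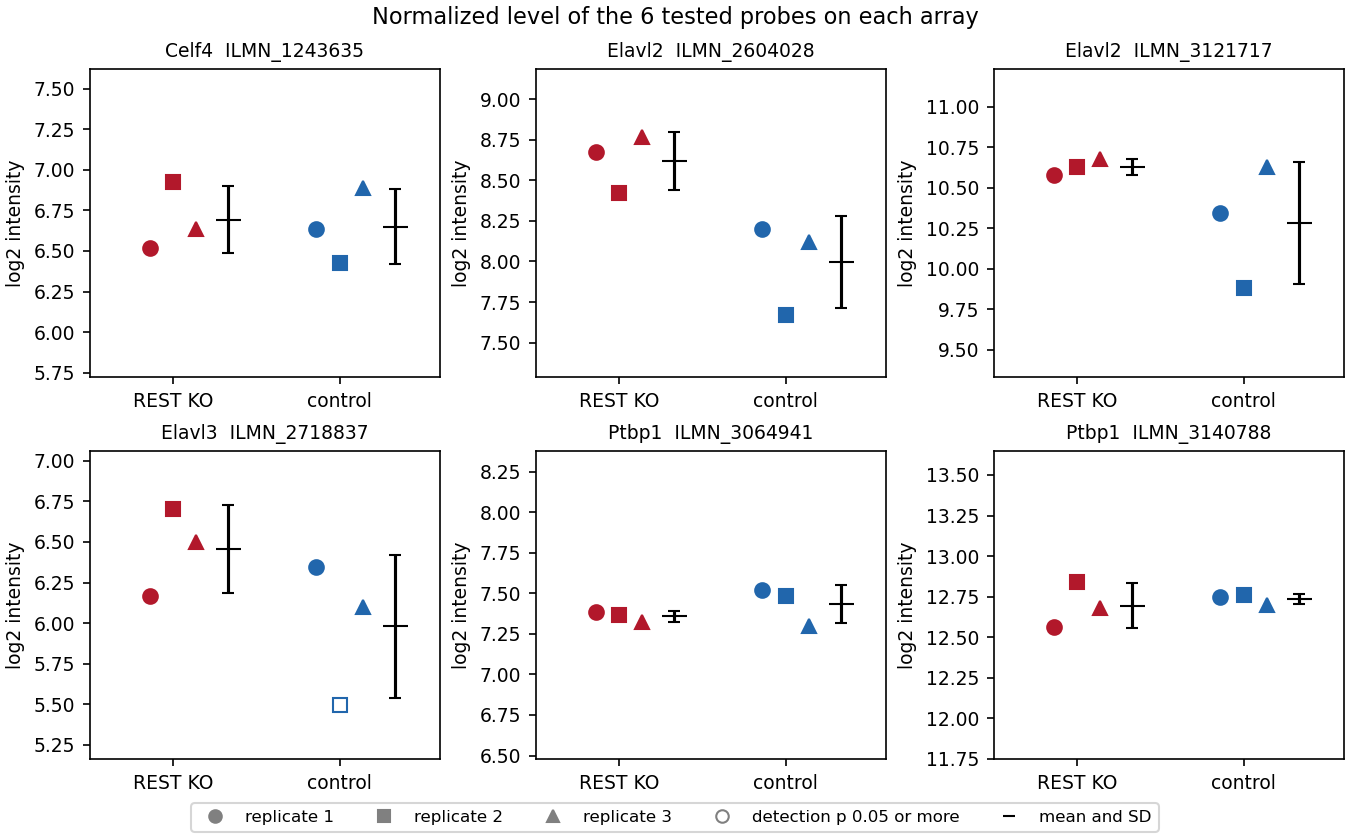
Normalized log2 intensity of the 6 tested member probes on each REST KO array (red, left) and control array (blue, right), with marker shapes for replicates 1 to 3, open symbols where the probe was not detected, and the mean with its SD beside each group. All panels span the same log2 range. The genotypes are apart only for the dimmer Elavl2 probe (8.42 to 8.77 in REST KO cells, 7.67 to 8.20 in control cells).

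A promoter window of Elavl2 is shown as the tested neuronal gene with a match. Elavl2 has 6 windows in the table, and the one printed (minus strand, chr4:91399935-91400234) is the only one of them with GGACAG, again in capitals. These letters are in 22.2% of all promoter windows, so a match does not set a gene apart.
Elavl2: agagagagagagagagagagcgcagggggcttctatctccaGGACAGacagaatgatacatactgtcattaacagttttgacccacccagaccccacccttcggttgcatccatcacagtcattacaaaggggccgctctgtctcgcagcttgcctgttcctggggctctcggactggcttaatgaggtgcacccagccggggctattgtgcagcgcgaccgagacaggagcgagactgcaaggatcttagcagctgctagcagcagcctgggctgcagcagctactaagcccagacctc

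Elavl3 (HuC), on chromosome 9 and used as a marker of young neurons, was near the detection limit. Its probe read 155.7, 193.0 and 183.8 (raw intensity) in REST KO cells and 180.6, 120.5 and 159.1 in control cells. It was detected on all REST KO arrays and on all control arrays but replicate 2, whose detection p was 0.110. Normalized levels were 6.17, 6.70 and 6.50 in REST KO cells and 6.35, 5.49 and 6.10 in control cells, so the groups overlap. The log2 difference was 0.48 ± 0.24, with an interval of -0.078 to 1.03 (limma adjusted p = 0.311). It averages in the background value of control replicate 2, and was 0.24 without that array (limma adjusted p = 0.396, from 0.291 to 0.607 over 14 alternatives). Without background correction it was also 0.24.

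Elavl4 (HuD), on chromosome 4, had 3 probes and none was detected on any array. The brightest (ILMN_3102035) read 115.9, 137.3 and 124.5 in REST KO cells and 129.3, 115.6 and 111.7 in control cells. Its lowest detection p was 0.0614, in REST KO replicate 2, so it lay just outside the limit there. The other probes read between 75.0 and 94.7 in REST KO cells and between 81.2 and 115.6 in control cells. One of them (ILMN_3028854) read lower on every REST KO array than on any control array after normalization (4.96 to 5.00, against 5.02 to 5.20). These are background levels, and they give no direction for Elavl4.

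CELF proteins bind GU-rich elements and act on splicing, translation and decay. Celf4, on chromosome 18, is expressed mainly in the nervous system, and its brighter probe (ILMN_1243635) was detected on all 6 arrays. It read 175.7, 210.4 and 192.9 in REST KO cells and 198.9, 164.2 and 211.0 in control cells. The groups overlap, with a control array at each end of the raw range. Normalized levels were 6.69 ± 0.21 in REST KO cells and 6.65 ± 0.23 in control cells. The log2 difference was 0.045 ± 0.16, with an interval of -0.33 to 0.42 (limma adjusted p = 0.906). A dimmer Celf4 probe was detected on no array, with 108.1 to 122.6 in REST KO cells and 99.8 to 127.5 in control cells.

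Celf3, on chromosome 3, had 1 probe, which read 89.6, 95.2 and 100.6 in REST KO cells and 91.8, 78.4 and 87.0 in control cells. After normalization every REST KO array was above every control array (4.97 to 5.08, against 4.85 to 4.91). Detected probes started at 5.72 to 5.86 on these arrays, so all of these values are background and give no fold. In the authors' deposited table, which holds dim probes too, Celf3 had a log2 fold change of 0.19 and an adjusted p of 0.294.

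Celf3 has 7 promoter windows in the table, 2 of them with GGACAG. One is shown (plus strand, chr3:94478216-94478515), as an undetected neuronal gene with a match near its start.
Celf3: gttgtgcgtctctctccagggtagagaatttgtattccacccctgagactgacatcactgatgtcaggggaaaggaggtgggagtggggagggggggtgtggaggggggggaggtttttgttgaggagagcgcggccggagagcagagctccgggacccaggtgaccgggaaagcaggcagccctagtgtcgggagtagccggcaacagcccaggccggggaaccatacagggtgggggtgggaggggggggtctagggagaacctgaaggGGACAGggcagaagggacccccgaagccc

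Letters of the RE1 element were searched in all 32851 RefSeq promoter windows of 300 bases, on both strands. Celf4 had no window among these, so it was not searched. The left-hand letters CAGCACC were in none of the 27 windows of the 9 members in the table, and in 7.14% of all windows. The right-hand letters GGACAG were in 6 of the 27, belonging to Celf3, Celf5, Elavl2 and Ptbp2, and in 22.2% of all windows. CAGCACC followed, after any 2 bases, by GGACAG, which overlaps both searches, was in none of the 27 and in 0.0365% of all. A match is a description, not a binding site. No match says only that these letters are not in these windows, and windows of 1 gene overlap each other in part.

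**Figure D3:**
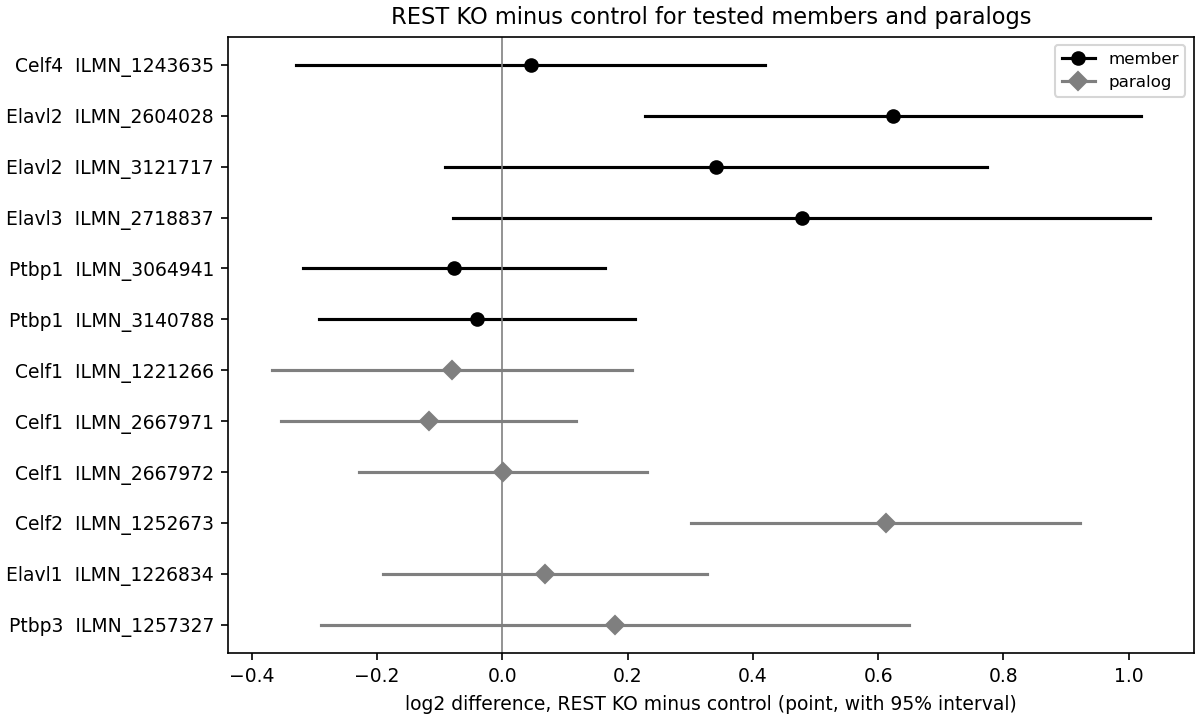
Log2 difference, REST KO minus control, of each tested probe of the members (black circles) and of their paralogs (grey diamonds), with 95% intervals from the limma fit. The intervals of the dimmer Elavl2 probe (0.23 to 1.02) and of Celf2 (0.30 to 0.92) lie above 0, and the others cross it.

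Other genes of the same families, some broadly expressed and some neural, were followed as a list of 7 paralogs, chosen from general knowledge. Of these, 5 had a probe and 4 were tested, and none passed (1 had an unadjusted p under 0.05 in limma, against 1766 of 8636 genes). Celf2, a family member active in heart, muscle and brain, had the largest difference. It stood at 8.94, 9.04 and 8.88 in REST KO cells and at 8.33, 8.13 and 8.56 in control cells, so every REST KO array was above every control array. The difference was 0.61 ± 0.13, or 1.53-fold, with an adjusted p of 0.0706 in limma. It passed under 6 of 15 alternatives (limma adjusted p from 0.0297 to 0.263). Among these, the fit without background correction and the fit on the authors' deposited log2 values used the same values (log2 0.50 in both). The authors' deposited table had the same log2 difference (0.50, limma adjusted p = 0.0318), so it is no separate support. The 2 other Celf2 probes were below the detection filter.

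Celf1, the broadly expressed relative, had -0.12 ± 0.10 (limma adjusted p = 0.556) by its brightest probe, and its other 2 tested probes had -0.080 and 0.0014. Elavl1 (HuR), the ubiquitous Hu protein, had 0.07 ± 0.11 (limma adjusted p = 0.772). Ptbp3, a further polypyrimidine tract binding protein, had 0.18 ± 0.20 (limma adjusted p = 0.657). Both probes of Nova2, the relative of Nova1, were undetected on all arrays. Celf6 and Srrm3 had no probe under those names.

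Other RNA-binding proteins were read as 3 lists from general knowledge. None of their 49 tested genes passed, against 1.37% of 8636 genes by their brightest tested probe. An unadjusted limma p under 0.05 was found for 3 of the 49, against 1766 of all 8636 genes. Among 10 tested regulators of alternative splicing, such as the MBNL and muscle or epithelial factors, 8 were above 0, with a median of 0.09. The largest difference was that of Esrp1, an epithelial splicing regulator, at 1.01 ± 0.31 (limma adjusted p = 0.141). Its levels were 11.37, 11.38 and 11.12 in REST KO cells and 9.58, 10.94 and 10.33 in control cells, so every REST KO array was above the control arrays, which themselves spanned a wide range.

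Of 23 tested general splicing factors and hnRNPs 16 were above 0, with a median of 0.044 and the largest difference in Hnrnph1 (0.31 ± 0.15, limma adjusted p = 0.292). Of 16 tested genes of RNA stability and translation 12 were above 0, with a median of 0.13. The largest there was Lin28a, which blocks the maturation of let-7 microRNAs and is abundant in ES cells, at 0.61 ± 0.19 by its brighter probe (limma adjusted p = 0.148). Dimmer probes of 2 listed genes came nearer the threshold, in opposite directions. That of Lin28a had 0.90 ± 0.17 (limma adjusted p = 0.0537). One of Rbm38, a splicing and stability regulator, had -0.66 ± 0.12 (limma adjusted p = 0.0549), with every REST KO array below every control array, while its other 2 probes had 0.010 and -0.0042. By comparison 3 of the 4 tested members were above 0, with a median of 0.19, and 4123 of all 8636 genes, with a median of -0.014. Without control replicate 2 the members came to 2 of 4 above 0 with a median of 0.056, the paralogs to a median of 0.063 and the general splicing factors to 0.090. The members' median was 0.074 with array weights and 0.34 without control replicate 3.

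**Figure D4:**
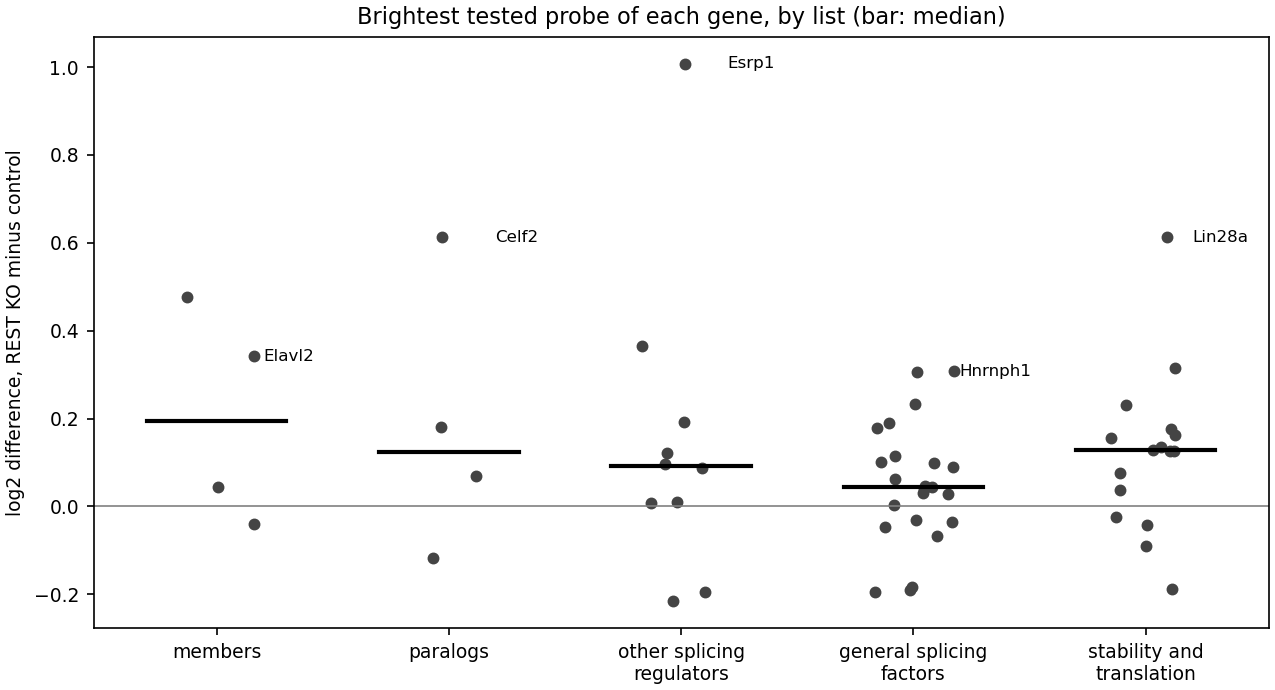
Log2 difference, REST KO minus control, of the brightest tested probe of each gene in 5 lists (points, spread sideways for visibility, with the median as a bar). Medians run from 0.044 for general splicing factors to 0.19 for the 4 members (0.056 for the members without control replicate 2), and no gene shown passed the adjusted p of 0.05.

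Among the tested members, Elavl3 had the widest range over the 6 arrays, 1.21 (log2), which rests on the undetected value of control replicate 2. Over the 5 arrays that detected it the range was 0.60, below the 1.09 of the dimmer Elavl2 probe over its 6. The genes whose levels followed it most closely were Atp6v0a1, a subunit of the vesicular proton pump (Pearson r = 0.988 over 6 arrays), Lmf1 (0.987), Aagab (0.971), Fut8 (0.970) and Ddah2 (0.969). All 5 were lowest in control replicate 2, as Elavl3 was. The arrays share 1 chip and the same few cell samples, and such high values are picked from 11388 probes, so they are given as a description only, one that includes that background value.

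Control replicate 2 was the lowest of the 6 arrays for 4 of the 6 tested member probes, those of Elavl2, Elavl3 and Celf4, and for 15.4% of all tested probes. Leaving out the lowest control value raises the control mean, so these 4 differences moved down by construction (Elavl2 to 0.46 and 0.14, Elavl3 to 0.24, Celf4 to -0.067). The Ptbp1 probes stayed below 0. No member probe passed without control replicate 2, in a fit that called 1638 of 11196 tested probes (145 of 11388 as reported). With 6 member probes, this does not set the members apart.

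**Figure D5:**
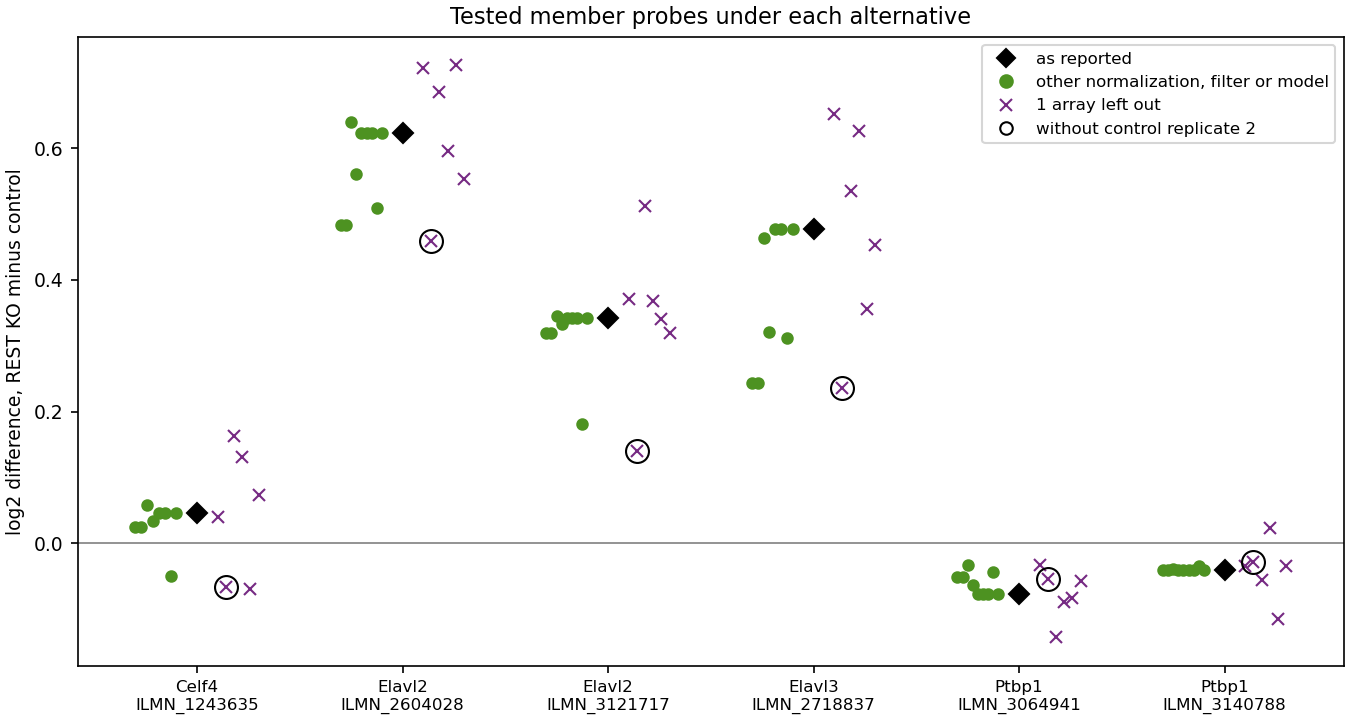
Log2 difference, REST KO minus control, of the 6 tested member probes as reported (diamonds), under other normalizations, filters and models (green circles) and with 1 array left out (crosses, with the fit without control replicate 2 ringed). Both Elavl2 probes and Elavl3 stayed above 0 in every fit shown, and Celf4 and the brighter Ptbp1 probe lie on both sides of it.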

How the data were processed

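Mean bead intensities per probe, not normalized, were made by the authors in BeadStudio 3.3.7, per the file headers. A deposited detection score rises with the signal, and 1 minus it was taken as the detection p. The authors' deposited log2 values lay within 5e-09 of plain quantile normalization of the log2 intensities. The p-values and log2 fold changes of the authors' deposited table came from limma, per the labels, and are used only where credited. A genome build for that table is not given in the sources used here.

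Here, neqc (limma 3.58.1, R 4.3.3) corrected the background by detection p, added an offset of 16, which shrinks differences of dim probes, and quantile normalized the arrays. Testing needed a detection p below 0.05 on 3 or more of the 6 arrays. The 11388 probes left were fitted with lmFit and eBayes with genotype as the sole term, two-sided, and adjusted over all of them by the Benjamini-Hochberg method. Symbols came from the authors' table, else the array's target names, updated through RefSeq (GRCm38.p6). The brightest tested probe stands for a gene in lists. The number of arrays limits the precision. The fit was tested on simulated data. Other normalizations, offsets, filters, variance models, array weights, a replicate block and leaving out each array were tried.

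The members and lists were chosen with earlier results of these data known. Named genes were all members, their paralogs, the largest difference and any called gene (up to 4) of each other list, Rest, Pou5f1, Nanog and Sox2, and the 5 genes most like the tested member of widest range. The dimmer probes of Lin28a, Sox2 and Pou5f1, and the genes Rbm38, Gap43, Nefm, Stmn2, Map2 and Nes, were named after their values were seen.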

Additional observations from a re-analysis of the deposited data

How the results depend on the processing

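With 3 arrays per genotype, 8 of 14 member probes at background and intervals as wide as those given, smaller differences were not detectable. By its brightest probe no member gene was called under any of the 15 alternatives. Of 147 values of 10 probes (members and paralogs), 135 kept their direction and side of the threshold. Another 7 newly passed it (6 of Celf2, 1 of Elavl2) and 5 reversed, none of them a called value. The fit without background correction and that on the authors' deposited values count separately here, though their values are the same. Also counted are the replicate block and the fits without control replicate 1 or any 1 REST KO array. Those fits called 0 of all tested probes, so not passing there says nothing about the members or paralogs. Celf4 reversed to -0.050 with array weights, and ran from -0.069 to 0.16 with 1 array left out. The brighter Ptbp1 probe ran from -0.12 to 0.023 and Elavl1 from -0.0076 to 0.12 with 1 array left out, both reversing without REST KO replicate 1. The cause was not tested.

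Counts over all probes, 120 higher and 25 lower as reported, moved more. They were 259 and 73 without background correction and on the authors' deposited log2 values, 219 and 55 with an offset of 50, 272 and 92 with the trend and robust options, 730 and 656 with array weights, and 46 and 4 with no filter. Lower calls were 15 with cyclic loess and 39 with the stricter filter. The share of calls that were higher was 82.8% as reported, 89.1% with cyclic loess, 79.9% with an offset of 50, 78% without background correction, 74.7% with the trend and robust options, 92% with no filter, 92.9% without control replicate 3, 68.8% with the stricter filter, 52.7% with array weights and 49.9% without control replicate 2. With 1 array left out, higher calls ran from 0 to 817 and lower calls from 0 to 821, both highest without control replicate 2. The limma count was 0 without control replicate 1 or any 1 REST KO array, with 1430 to 2041 probes at an unadjusted p under 0.05.

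Among paralogs 1 gene, Celf2, was called higher without background correction, on the authors' deposited values, with the trend and robust options and with array weights. With array weights 1 of 10 tested splicing regulators (Esrp1) and 1 of 16 stability genes (Lin28a) were also called higher, in a fit that called 730 of 11388 probes higher. With 1 array left out, 0 to 1 paralog, 0 to 2 splicing regulators, 0 to 1 general splicing factor and 0 to 1 stability gene were called higher. The highest of these counts were all reached without control replicate 2, where 817 of 11196 probes were called higher. With lists this small, such counts do not set the lists apart from other genes. With the replicate block, limma called 0 probes higher and 0 lower (2376 had an unadjusted p under 0.05), and the dimmer Elavl2 probe had an adjusted p of 0.0927. Deviations of same-numbered arrays correlated at -0.274, 0.337 and 0.358, and not every array correlated best with its own number. With so few arrays per genotype, these values cannot decide whether same-numbered arrays were paired. In the labels, such arrays are linked only by that number.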
